A study of Drosophila melanogaster with 2 samples.

Results

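The genes described are those of the small subunit of the cytosolic ribosome, taken as the protein-coding genes of the Ensembl annotation whose symbol begins with RpS and a digit. There were 38 of them among 13945 protein-coding genes on the major chromosome arms. They were examined in ChIP-seq peak lists of the Notch-induced basic helix-loop-helix repressor E(spl)mδ-HLH. Both samples, replicates 1 and 2 of the only group, were chromatin of mixed-sex whole embryos aged 2 to 12 h from the Drosophila line E(spl)m-delta-GFP, in which the protein carries GFP at its C-terminus. The antibody label names HLHmδ, 1 free-text label calls the samples an input control, and a control is listed separately. The lists were treated as immunoprecipitate, because each was called against that control. Nothing in them says which cells of the embryo a peak came from, and no untagged line was among these samples.

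Ribosomal proteins of the small subunit fold around its ribosomal RNA into a head, a body and a platform, which together hold the messenger RNA and read its codons. The genes are expressed in nearly every cell, and in Drosophila the loss of 1 copy of many of them gives the Minute phenotype of slow growth and thin bristles. Their promoters mostly lack a functional TATA box and start transcription in a pyrimidine-rich initiator, the TCT motif, which in Drosophila is used through the TBP-related factor Trf2. Because peaks at these genes sat on the start site itself, the start regions are printed first.

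The lines below give 7 start regions, each reaching from 60 bases before the annotated transcription start site (TSS) nearest to the strongest summit to 40 bases after it, read from the NCBI Release 6 genome (dm6) on the strand of the gene. The TSS is the base after the first 60. The first 3 belong to the members with the strongest peaks that could be shown. RpS10b and RpS10a are duplicate genes of which only RpS10b had a thresholded peak. RpS3 is the member without a thresholded peak that came nearest to one, and RpS3A, chosen after its values were seen, had a strong peak in 1 replicate list alone. Capitals mark the CTTT nearest to the TSS where one began within 20 bp.
RpS27 (chr3R:25247474-25247574, minus strand): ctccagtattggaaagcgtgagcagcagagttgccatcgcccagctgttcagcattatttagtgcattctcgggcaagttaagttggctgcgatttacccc
RpS4 (chr3L:13041741-13041841, plus strand): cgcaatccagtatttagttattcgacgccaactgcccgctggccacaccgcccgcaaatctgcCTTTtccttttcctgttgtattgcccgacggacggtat
RpS28b (chrX:9554563-9554663, plus strand): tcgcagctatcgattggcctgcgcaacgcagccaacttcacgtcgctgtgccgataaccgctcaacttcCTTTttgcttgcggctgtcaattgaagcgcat
RpS10b (chrX:19597971-19598071, plus strand): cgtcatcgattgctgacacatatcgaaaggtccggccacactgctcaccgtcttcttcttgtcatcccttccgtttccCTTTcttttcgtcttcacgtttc
RpS10a (chr3R:27652700-27652800, plus strand): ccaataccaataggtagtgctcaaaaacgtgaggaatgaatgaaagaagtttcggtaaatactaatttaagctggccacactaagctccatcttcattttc
RpS3 (chr3R:23358752-23358852, plus strand): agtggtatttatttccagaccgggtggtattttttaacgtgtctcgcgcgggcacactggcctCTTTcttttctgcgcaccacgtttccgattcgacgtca
RpS3A (chr4:67167-67267, minus strand): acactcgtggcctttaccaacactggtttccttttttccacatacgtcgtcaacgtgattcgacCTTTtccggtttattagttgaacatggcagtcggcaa
In RpS4 and RpS3 the CTTT began 3 bp after the TSS, in RpS3A 4 bp, in RpS28b 9 bp and in RpS10b 18 bp. RpS27, which had the strongest peak of all members, and RpS10a had none in this range.

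A larger share of the small-subunit genes than of protein-coding genes as a whole had a peak at the start site. The authors' thresholded list is 9.17% as long as their list of 30000 peaks called on both replicates pooled, which reaches down to background. A gene is called bound here if its nearest thresholded summit was at most 2 kb from a TSS of the gene. By this rule 26 of 38 members were bound (68.4%, exact binomial 95% interval 51.4 to 82.5), beside 16.9% of all protein-coding genes. Within 100 bp of a TSS the count was 24 members (63.2%), beside 8.63% of all genes. Among the 10% of thresholded peaks with the highest signal, 14 members (36.8%) had a summit within 2 kb, beside 2.15% of all genes. No list was tested for enrichment, so these shares are descriptions, and intervals cover counting error only.

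**Figure D1:**
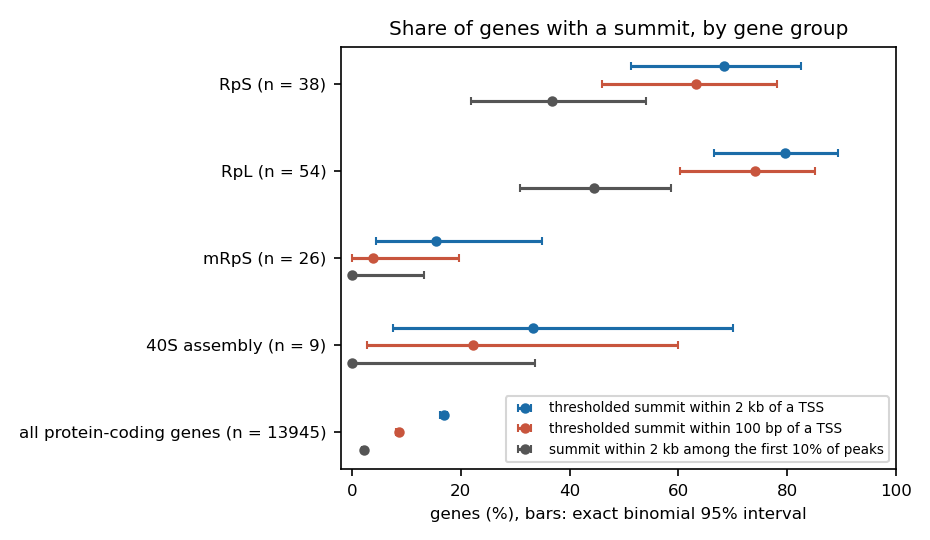
Share of genes (x axis, percent) with a summit, by gene group (y axis, number of genes in brackets), under 3 definitions given by colour, the last of them restricted to the 10% of thresholded peaks with the highest signal. Points are shares and bars exact binomial 95% intervals. RpS genes stand at 68.4%, 63.2% and 36.8%, and all protein-coding genes at 16.9%, 8.63% and 2.15%.

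The most similar gene groups were bound to different extents. Large-subunit genes (RpL) were bound in 43 of 54 cases (79.6%, interval 66.5 to 89.4), an interval that overlaps that of the small subunit. Genes for the mitochondrial small subunit (mRpS), which serve translation inside the organelle, were bound in 4 of 26 cases (15.4%, interval 4.36 to 34.9). Of 9 genes that act in small-subunit assembly or modify ribosomal RNA, 3 were bound by this rule, with signals of 120 for Fib, 154 for nop5 and 151 for hoip. The summits counted for Fib and hoip were nearer to another gene, lying 18 bp from CG3085 and 44 bp from Pka-C1. The genes dbe, RIOK1, RIOK2, Nop56, Nop60B and NHP2 had no thresholded summit within 2 kb. A pair of further proteins of the subunit are encoded by genes whose symbols fall outside the rule, and both carried peaks. The genes are sta (signal 371, rank 149, summit 7 bp downstream of the TSS) and Rack1 (signal 561, rank 46, summit 3 bp upstream).

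**Figure D2:**
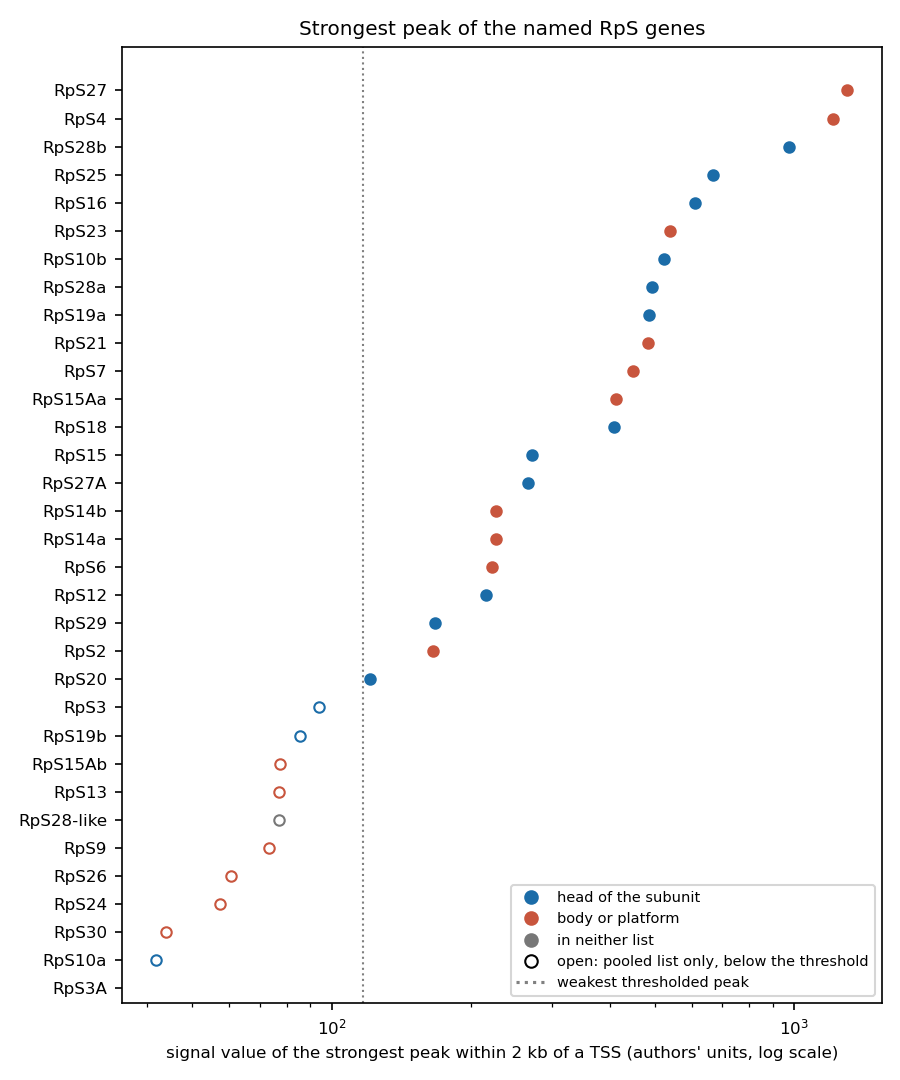
Signal value of the strongest peak within 2 kb of a TSS (x axis, the authors' units, log scale) for the named RpS genes (y axis, ordered by signal), coloured by position in the subunit. Filled points are thresholded peaks, open points have a peak in the pooled list alone, and the dotted line is the weakest thresholded peak at 117. RpS27 and RpS4 lie highest at 1304 and 1213, and RpS3A has no point because no pooled peak lay within 2 kb. Members not named in the text are not drawn.

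Peak strength varied more than 10-fold among the bound members. The signal is the authors' enrichment value of a peak, comparable within a list only. Over the 26 bound members its median was 404 and its range 121 to 1304, beside a median of 169 over the 2354 bound protein-coding genes and of 327 over the bound RpL genes. The median rank was 127.5, beside 1241 over all bound genes, and 3 members held ranks up to 15 and 11 ranks up to 100. The q value stood at the ceiling of its column in 25 of the 26, so it does not order these peaks.

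Head proteins of the subunit were bound in 14 of 18 cases and body or platform proteins in 12 of 19. Within 100 bp of a TSS the counts were 12 of 18 (66.7%) and 12 of 19 (63.2%). The head genes RpS20 and RpS28a were not counted there. RpS28-like is in neither group and was not bound. The median signal was 404 for the bound head genes and 320 for the bound body or platform genes. The head median includes peaks of RpS12, RpS20 and RpS28a that were nearer to other genes, and the body median that of RpS14b. The head genes ran from rank 8 to rank 2561 and the body or platform genes from rank 3 to rank 1298. Their shares within 2 kb overlap in their intervals (52.4 to 93.6% and 38.4 to 83.7%).

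In the head group the strongest peak was at RpS28b (FBgn0030136, chrX:9554483-9554708), whose protein lines the channel by which messenger RNA leaves the subunit. Its signal was 974 (rank 8), with 641 (rank 7) in the list of replicate 1 and 327 (rank 12) in that of replicate 2. RpS25, a protein needed for initiation at some viral internal ribosome entry sites in yeast and human cells, followed at 667 (rank 30, chr3R:11216211-11216399), with ranks 33 and 32 in replicates 1 and 2. The signals there were 409 and 249.8, so the place of RpS25 in the order was nearly the same in every list. The DRE sequence TATCGATA stood within 50 bp of its summit.

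RpS16 (FBgn0034743, chr2R:22606007-22606203) had a signal of 611 at rank 39, with 333 (rank 61) in replicate 1 and 283 (rank 22) in replicate 2. The summit lay 16 bp upstream of an internal TSS of the gene and inside the 5' UTR of a longer transcript. RpS10b (chrX:19597935-19598142) had a signal of 524 at rank 57, with 375 and 159 in replicates 1 and 2. RpS19a, whose human counterpart is the gene most often mutated in Diamond-Blackfan anaemia, had 486 (rank 79, chrX:16637788-16637957), with 331 (rank 62) in replicate 1 and 156 (rank 155) in replicate 2.

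The remaining head genes, apart from RpS28a and RpS12, which are described with their neighbours, carried weaker peaks. Among them were RpS18 (408, rank 125), RpS15 (271, rank 382) and RpS27A (266, rank 400), which encodes a fusion with ubiquitin. RpS18 had 247 in replicate 1 and 159 in replicate 2. Among the bound head genes that stood higher in the list of replicate 2 were RpS16, RpS25 and RpS28a. RpS15 had 162 and 111 and RpS27A 180.3 and 83.5 in replicates 1 and 2, in that order. Among the lowest head genes were RpS29 (167, rank 1263, chr3R:9777920-9778169) and RpS20 (121, rank 2561, chr3R:20821760-20822009).

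Among body and platform genes RpS27 and RpS4 stood apart from the rest. RpS27 (FBgn0039300, chr3R:25247388-25247612), a zinc-binding protein, had a signal of 1304 at rank 3, with 849 (rank 3) in replicate 1 and 462 (rank 4) in replicate 2. RpS4 (FBgn0011284, chr3L:13041673-13041920) had 1213 at rank 4, with 792 (rank 4) and 431 (rank 6) in replicates 1 and 2. The next body gene, RpS23, a protein of the decoding centre, had 540 (rank 53, chr2R:14216491-14216671), with 338 (rank 52) in replicate 1 and 189 (rank 80) in replicate 2. RpS27 and RpS4 were thus more than 2-fold above every other body gene in all 3 of these lists. RpS21, known in flies as a growth suppressor of the blood-forming organs, had 483 (rank 80, chr2L:2855989-2856168), with 346 in replicate 1 and 137 in replicate 2. RpS7 had 448 (rank 95, chr3R:30208862-30209023), with 299.5 and 152 in replicates 1 and 2.

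RpS15Aa (413, rank 122), RpS14a (226, rank 630), RpS6 (222, rank 668) and RpS2 (166, rank 1298) were among the other bound body genes, with RpS14b treated among the duplicates. RpS6 encodes the target of the S6 kinase, the growth-controlling enzyme downstream of TOR. Its signal was 164 in replicate 1 and 51.6 in replicate 2. RpS15Aa had 289 in replicate 1 and 123 in replicate 2. RpS2, at the messenger RNA entry, had 114.7 and 47.0 in the same order.

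The summits lay close to the start sites. Over the bound members the strongest summit was a median of 15.5 bp from a TSS, beside 196 bp over all bound protein-coding genes and 19 bp over bound RpL genes. In 22 of 26 members (84.6%) it was within 40 bp, beside 30.0% of all bound genes. These 22 summits ran from 37 bp upstream to 17 bp downstream, at RpS2, with a median of 7 bp upstream. They were on both sides of the start, 13 upstream and 9 downstream. Where the peaks were matched in the replicate lists, the summit there was a median of 4 bp away in replicate 1 and 4 bp in replicate 2.

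**Figure D3:**
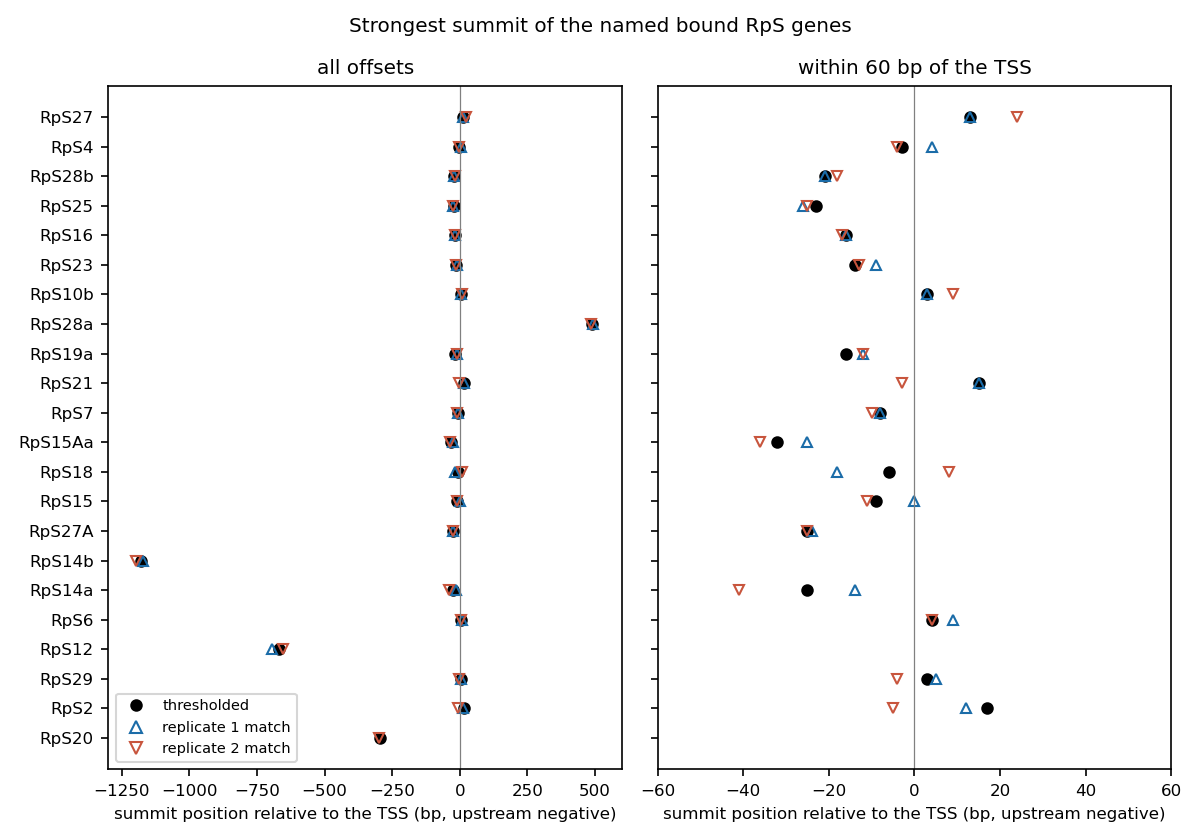
Position of the strongest summit relative to the nearest TSS of the named bound RpS genes (x axis, bp along the gene, upstream negative), with genes ordered by rank from the top. Black points are thresholded summits and open triangles the matched summits of replicates 1 and 2, over all offsets on the left and within 60 bp on the right. Over all 26 bound genes the thresholded summit is in 22 within 40 bp of the TSS, and the exceptions are RpS28a, RpS14b, RpS12 and RpS20. Members not named in the text are not drawn.

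By annotation 16 of the 26 strongest summits were inside a 5' UTR and 10 between genes. Peak widths differed between the stronger and the weaker members. The 14 members ranked 130 or better had peaks of under 250 bp, the narrowest being the 113 bp at RpS18, and the 12 from rank 382 onwards had the list's usual width of 250 bp. Over the whole list, 129 of the first 130 peaks and 157 of the others had another width than 250 bp.

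Several of these peaks were shared with a neighbour. In 4 of the 26 bound members the strongest summit was nearer to another protein-coding gene. The peak assigned to RpS12, a head protein known for its part in the competition between Minute and normal cells (signal 215, rank 723, chr3L:13022560-13022809), lay 3 bp from a TSS of Adk2 and 667 bp upstream of RpS12. RpS12 had a second summit of its own, 15 bp upstream of its TSS (signal 195, rank 894). The only peak of RpS20 lay 37 bp from CG17271 and 296 bp upstream of RpS20. The RpS28a summit was 61 bp from Mgat2 and that of RpS14b 25 bp from its duplicate RpS14a. At RpS27A the summit was 25 bp from its TSS and also 25 bp from that of Ip259.

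Of the 26 bound members 17 had 1 thresholded peak and 9 had 2. Since RpS14a and RpS14b share both of theirs, these are 33 different peaks. Of the 9 second peaks 6 were nearest to another gene, such as CG2991 (5 bp, next to RpS21). The other 3 were nearest to the member itself, at RpS12, RpS14b and RpS23. Without the 4 members whose strongest summit was nearer to another gene, a variant added once the values were known, 22 of 38 remained (57.9%). With each summit given to its nearest gene alone, 24 of 38 members (63.2%) and 11.6% of all genes were bound.

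Duplicate copies of the same protein differed in their peaks. There are 6 such pairs, and in 4 of them 1 copy was bound and the other was not. Among these, RpS10b (signal 524) stood against RpS10a, RpS19a (486) against RpS19b and RpS15Aa (413) against RpS15Ab. RpS10a and RpS19b are copies known for expression in the germ line, while RpS10b and RpS19a are used broadly.

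In the pooled list, which reaches down to background, the copies without a thresholded peak had weak and mostly distant summits. RpS10a had its strongest at 41.8 (rank 23537, 1022 bp downstream), RpS15Ab at 77.5 (rank 6037, 1747 bp upstream) and RpS19b at 85.7 (rank 4890, 492 bp upstream). None of these had a pooled summit within 100 bp of its TSS. In replicate 2 RpS19b had its strongest summit at rank 1870, 526 bp upstream, which is inside the length of the thresholded list.

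The remaining pairs had thresholded peaks near both genes. RpS28b held the summit described above, 21 bp upstream of its TSS. RpS28a, a gene of 304 bp, had summits of 493 (rank 73, chr3R:30022106-30022235) and 187 (rank 995). The stronger had 252 (rank 124) in replicate 1 and 236 (rank 41) in replicate 2. Both were nearer to other genes, the stronger to Mgat2 and the weaker to Axn (68 bp), and none was within 100 bp of the RpS28a TSS. RpS14a and RpS14b lie in tandem on X, and each had a summit near its own start, 25 bp upstream at RpS14a (signal 226, rank 630) and 58 bp upstream at RpS14b (178, rank 1110). The RpS14a peak had 144 in replicate 1 and 80.7 in replicate 2.

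The pairs share coding sequence more than promoters. Coding identity was 97.8% for RpS14a and RpS14b and 98.2% for RpS15Aa and RpS15Ab, and 70.9% for RpS19a and RpS19b, 76.5% for RpS10b and RpS10a and 76.9% for RpS28b and RpS28a. Promoter identity, over 250 bp before and 50 bp after the most upstream TSS in a global alignment, was 64.7% for RpS14a and RpS14b and 57.0 to 57.7% for these other 4 pairs. No unrelated promoters are given for comparison, so how much of this identity they would also show is not known. How reads that match both copies of a pair were placed is not given in the sources used here for these lists.

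The 12 members without a thresholded peak were 4 duplicates, RpS28-like, and 7 genes without such a copy. RpS3, a head protein at the entry of the messenger RNA channel, came nearest, with a pooled signal of 93.9 at rank 4089 and its summit 19 bp downstream of the TSS, against 121 at rank 2561 for RpS20, the weakest bound member. RpS13 (77.1, rank 6083, 20 bp downstream), RpS9 (73.3, rank 6784, 20 bp downstream) and RpS24 (57.3, rank 11523, 12 bp upstream) also had weak pooled summits on the start site. In replicate 1 these 4 genes had their strongest summit between 18 bp upstream and 22 bp downstream, at signals of 40.9 (RpS24) to 65.3 (RpS3). In replicate 2 their strongest summits were 124 bp (RpS13) to 1306 bp (RpS3) from a TSS. That of RpS13 had a signal of 58.5 at rank 2171, which is inside the length of the thresholded list. The start-site position of these weak pooled peaks was thus also seen in replicate 1, but not for the strongest summits of replicate 2. The pooled list was called on both replicates, so it is not independent of replicate 1. In replicate 2 RpS3 alone of the 4 had a summit within 100 bp, 48 bp downstream at rank 20971. RpS26, next to the messenger RNA exit, had 60.6 at rank 10199 and 332 bp downstream, while in replicate 1 its strongest summit was 2 bp downstream at 38.4. In replicate 2 it was 407 bp downstream at 54.2 and rank 2528, also inside the length of the thresholded list. RpS28-like had 77.0 at rank 6107, 686 bp downstream. In all, 30 of the 38 members had a summit within 100 bp in the pooled list, 33 in the list of replicate 1 and 26 in that of replicate 2. These long lists reach down to background, and no share of all protein-coding genes is given for them at this distance. How far the counts exceed that share is therefore not known.

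RpS3A and RpS30 had peaks in replicate lists that the pooled list did not hold. RpS3A (FBgn0017545), the only member on chromosome 4 and a Minute gene, had a peak of signal 234 at rank 148 in replicate 1 (chr4:67190-67276), with the summit 24 bp upstream of its TSS. The pooled list and that of replicate 2 had no summit within 2 kb, and their nearest on chromosome 4 lay 310118 and 310084 bp away. Replicate 1 had 6 peaks to the left of the first summit that these lists held on that chromosome. Among as many of the strongest peaks of replicate 1 as make up 10% of the thresholded list, only this peak overlapped no pooled peak. RpS30, whose protein is made as a fusion with a ubiquitin-like domain, had a summit 5 bp upstream of a TSS at rank 2173 (signal 79.7) in replicate 1 and 12 bp downstream at rank 2566 (signal 53.8) in replicate 2. The pooled list had its nearest summit 84 bp downstream, at rank 21190.

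The members kept much of their order between replicates, at different ranks. For these counts each replicate list was taken down to the length of the thresholded list. Of the members, 27 of 38 members (71.1%) had a summit within 2 kb in replicate 1, beside 16.5% of all genes, and 27 of 38 in replicate 2, beside 17.0%. In both replicates together the count was 23 (60.5%), beside 12.0% of all genes. RpS30 was among these 23, and RpS2, RpS6, RpS20 and RpS29 were bound in the thresholded list but not here.

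The strongest summit was matched within 100 bp in both replicate lists for 25 of the 26 bound members. Over their 24 different peaks the log10 ranks had a Pearson r of 0.91 and a Spearman rho of 0.88, given as a description of peaks that share their libraries. Replicate 1 gave the better rank in 20 of 25 members (80.0%). Among all 2667 thresholded peaks matched in this way the share was 55.5%, and among bound RpL genes 33 of 41 (80.5%). The rank in replicate 2 was a median of 1.91 times that in replicate 1 over the member peaks and 1.13 times over the other 2643 peaks. With 1 list per replicate no test was possible, and the cause was not tested.

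**Figure D4:**
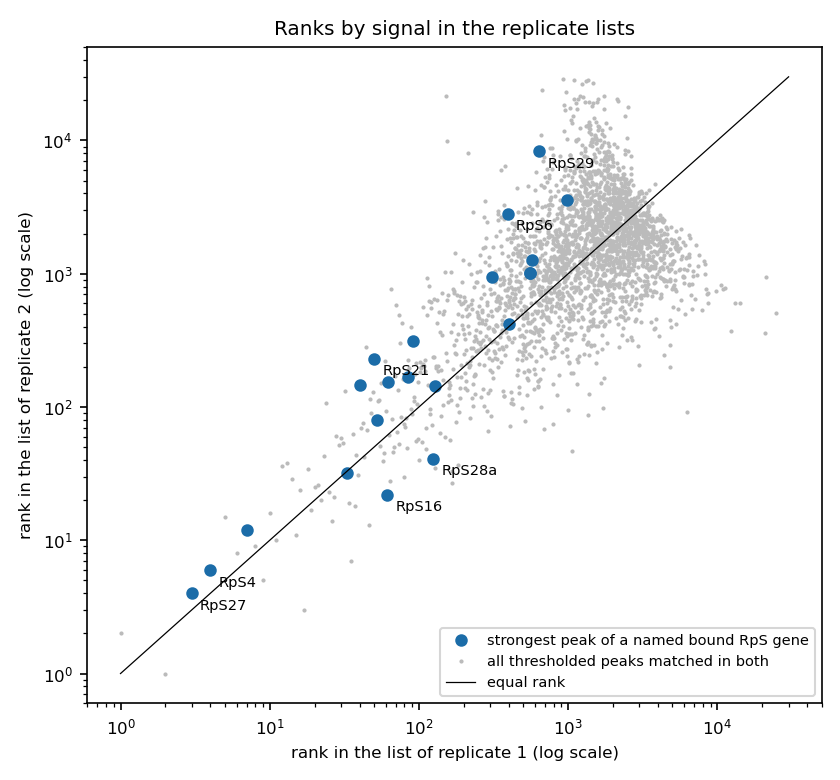
Rank of each thresholded peak in the list of replicate 1 (x axis) and of replicate 2 (y axis), both log scales, where 1 is the strongest. Blue points are the strongest peaks of the named bound RpS genes and grey points all thresholded peaks matched in both lists. Most blue points lie above the line of equal rank, with RpS29 and RpS6 far from it. Members not named in the text are not drawn in blue.

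In 4 members matched in both lists the ranks differed by more than 4 times, each time in favour of replicate 1. Not all of them are named here. RpS29 ranked 639 in replicate 1 and 8340 in replicate 2. RpS6 ranked 393 and 2829 and RpS21 50 and 231 in the same order. RpS20 is not among these 4, because its peak had no match in replicate 1. It ranked 1013 in replicate 2, with its summit 298 bp upstream, on the CG17271 side. The strongest RpS peaks did not part in this way, with RpS27 at ranks 3 and 4 and RpS4 at 4 and 6.

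Bound members were found on every arm except chromosome 4. On X 8 of 8 members were bound, on 3L 3 of 4, on 2R 5 of 7, on 3R 7 of 12, on 2L 3 of 6 and on chromosome 4 0 of 1. Over all protein-coding genes the shares were 15.4% on X, 17.4% on 3L, 19.1% on 2R, 16.8% on 3R, 15.6% on 2L and 5.0% on chromosome 4. The copies RpS10b, RpS15Aa, RpS19a and RpS28b are among the X genes, so arm and copy cannot be told apart in this count.

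A CTTT shortly after the annotated TSS was common to bound and unbound members. With the TSS nearest to the strongest summit, CTTT began between 2 and 6 bp downstream in 21 of 38 members (55.3%), beside 2.97% of all promoters and 57.4% of RpL promoters. Over the same distances upstream it began in 1 member (2.63%), beside 2.81% of all promoters. At the annotated TSS itself it began in 0 of 38 members, beside 0.509% of all promoters. At 1 bp downstream it also began in 0 of 38, beside 0.359%. The range of 2 to 6 bp was chosen after the positions were seen. The motif stood there in 14 of 26 bound members (53.8%) and 7 of 12 unbound ones (58.3%). Unbound members have no thresholded summit within 2 kb to choose the TSS by, so the bound and unbound shares rest on unlike choices. Counted within 5 bp of the most upstream TSS in either direction, it was found in 13 of 38 members (34.2%), beside 5.64% of all promoters. These were 8 of 26 bound members (30.8%) and 5 of 12 unbound ones (41.7%).

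**Figure D5:**
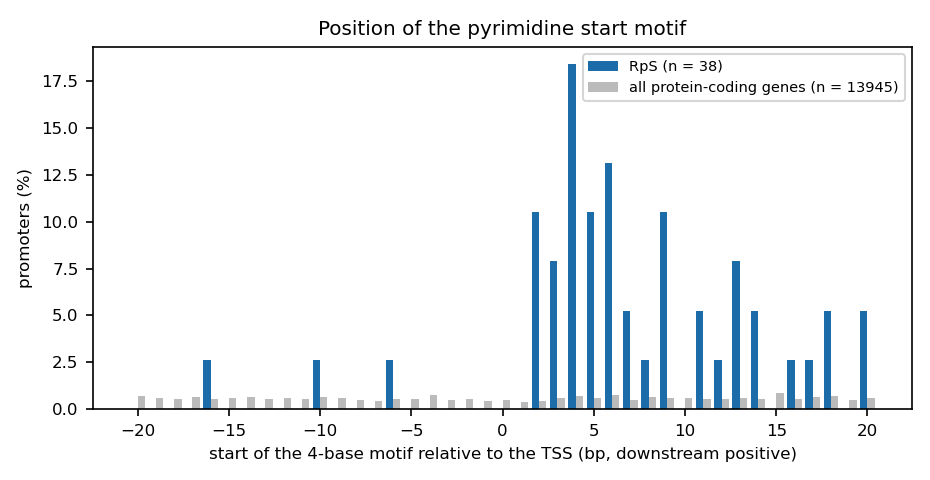
Percentage of promoters (y axis) in which the 4-base motif CTTT begins at each position relative to the TSS nearest to the strongest summit (x axis, bp, downstream positive), for 38 RpS genes in blue and 13945 protein-coding genes in grey. Blue bars gather downstream of the start, 21 of 38 promoters having the motif between 2 and 6 bp, while the grey bars stay low on both sides.

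Other promoter sequences were searched on both strands in the window from 250 bp before to 50 bp after the most upstream TSS. TATCGATA, the DRE bound by DREF, occurred in 13 of 38 RpS promoters (34.2%), beside 9.36% of all and 27.8% of RpL promoters. It was in 9 of 26 bound and in 4 of 12 unbound members. CACGCG, the class C E-box, occurred in 6 of 38 (15.8%), beside 6.12% of all and 13.0% of RpL promoters. It was in 6 of 26 bound members (interval 8.97 to 43.6%) and 0 of 12 unbound ones (up to 26.5%), and these intervals overlap. The 6 were RpS7, RpS18, RpS19a, RpS21, RpS23 and RpS27A. CACGTG, the class B E-box, occurred in 0 of 38 RpS promoters (interval up to 9.25%), beside 4.20% of all and 14.8% of RpL promoters. GAGAGAG was in 0 of 38, beside 5.87% of all promoters and 0 of 54 RpL promoters. Motif 1 (GGTCACACT) was in 3 of 38 (7.89%), beside 6.05%, the N-box CACNAG in 8 (21.1%), beside 29.7%, and TATAAA in 20 (52.6%), beside 45.8%. None of the 7 sequences contains another, and a match of letters is a description and not a shown binding site.

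At the summits themselves, within 50 bp on each side, 4 of the 25 different strongest summits of the members held CACGCG (16.0%, interval 4.54 to 36.1), beside 8.47% of all thresholded summits. They were those of RpS7, RpS19a, RpS21 and RpS23. TATCGATA was in 4 summit windows (16.0%), beside 2.00%, and CACNAG in 3 (12.0%), beside 17.1%. CACGTG and GAGAGAG were in none of the 25, beside 3.35% and 9.24%. The mean GC content was 50.3% (SD 5.41) in the members' windows and 51.2% (SD 6.56) in all. The strongest members, RpS27, RpS4 and RpS28b, held none of the 7 searched sequences within 50 bp of the summit.

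Many of these genes carry small nucleolar RNAs in their introns, which guide modification of ribosomal RNA. A total of 41 annotated snoRNA genes lay inside 12 of the 38 members on the same strand, among them RpS7 with 7 and RpS16 with 5. Of these 12 host genes 10 were bound, and RpS3A and RpS9 were not. Among all 38 members 26 were bound. No share is given for snoRNA host genes outside the members, and a link between hosting and binding was not tested. The median gene length was 1449 bp in bound and 1022 bp in unbound members, beside 2166 bp over all protein-coding genes.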

How the data were processed

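Chromatin of 2 replicates of 1 group was sonicated, with a size range of 200 to 800 bp per the labels. The authors deposited 4 narrowPeak lists on dm6: 1 of 30000 peaks per replicate, 1 of 30000 from both pooled, and a shorter one kept by an irreproducible discovery rate cutoff. The README deposited with them lists the same control alignment for all. The aligner, the caller and the cutoff were not given in the sources used here. Signal per peak, the −log10 of the q-value and, in another column, the summit offset are the authors' deposited values. Read depth is unknown. Signals and ranks were compared within a list only.

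Coordinates are 1-based. Genes came from Ensembl release 115 (BDGP6) and sequence from NCBI Release 6, the same assembly, where 16193 of 16213 start codons read ATG. No promoter or protein table was used, so promoters were read from that genome, at the most upstream TSS, or at the TSS nearest to the strongest summit where the text says so. A gene's distance is that of its strongest summit within 2 kb to the nearest of its TSSs. Replicate peaks matched within 100 bp of a summit. Matching and motif counting were checked on planted data. Members, gene lists and motifs were chosen with earlier results of these data known, and no list test was made.

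With the exceptions given at the end, named in full were the 10 members with the highest signal, all duplicates, the 3 weakest, all unbound members, those whose replicate ranks differ by more than 4 times and those whose summit is nearer to another gene. Distances, thresholds, replicates, TSS choice and assignment were varied. Duplicates were compared by global alignment. Analyses used python 3.11.15, numpy 2.4.6, pandas 2.3.3, scipy 1.17.1 and biopython 1.88, with matplotlib 3.10.9 for figures. Some members are not reported by name here, but they are included in all counts and medians.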

Additional observations from a re-analysis of the deposited data

How the results depend on the processing

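The count of bound members stayed between 22 and 28 of 38 under the 12 alternatives run for it, against 26 as reported. It was 24 within 100 bp, 28 within 5 kb, 24 in the stronger 50% of thresholded peaks, 28 in the first 5500 pooled peaks and 27 with either replicate left out. The background moved more. All protein-coding genes counted as bound were 2354 as reported, 1204 within 100 bp, 3640 within 5 kb, 1299 in the stronger 50% and 3868 in the first 5500 pooled peaks, and 2294 to 2371 with 1 replicate left out. The median distance of the strongest summit was 15.5 bp as reported and 25 bp with the most upstream TSS alone. With 1 replicate left out it was 14 to 18 bp, and the members bound among the top 10% of peaks were 13 to 15, against 14 as reported. The CTTT count of 13 promoters became 4 within 2 bp and 22 within 20 bp, by the wider or narrower window itself, and 18 with the TSS nearest to the summit. The alternatives that require both replicates (23 bound members) and that leave out members nearer to another gene (22) were chosen after seeing the data. No paired analysis was possible because the study has 1 group and no contrast. Unknown depth and 2 replicates limit every value.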

Other observations

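Weak summits lay on the start sites of several unbound members too. Of the 12 members without a thresholded peak, 6 had a pooled summit within 100 bp of a TSS. In the list of replicate 1 there were 8 with one, the strong RpS3A peak among them. No share of all protein-coding genes is given for these long lists, so the counts are descriptions of the members only. Only 2, RpS3 and RpS30, had one in the list of replicate 2.

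Taken down to the length of the thresholded list, replicate 1 had 23 peaks that overlapped no pooled peak. Of the 1707 that overlapped a peak of replicate 2 taken to the same length, 3 were missing from the pooled list in this way, the RpS30 start site among them. The RpS3A peak had the second highest signal of the 58 peaks that replicate 1 had on chromosome 4, where replicate 2 had 29 and the pooled list 28. Why these peaks are absent from the pooled list was not tested.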
